A study of Mus musculus with 4 samples.

Results

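The 10 genes described here are the AP-1 and immediate early transcription factors Fos, Fosb, Fosl1, Fosl2, Jun, Junb, Jund, Egr1, Atf3 and Nr4a1. They were chosen by symbol from the 28006 features of the deposited count tables, and all 10 were found in every library. Expression was measured by droplet-based single-cell RNA-seq, in which each captured mRNA molecule is counted once through a unique molecular identifier (UMI) at its 3′ end. The cells were tdTomato+ cells sorted from mouse femurs of the genotype Cxcl12-iCreER; R26R(tdTomato/+), after growth plates had been removed and the bones digested with enzymes. All mice received tamoxifen 7 days before the marrow of the right femur was removed mechanically (marrow ablation), and cells were sorted 7 days after the operation. ABL libraries came from the ablated femur and CONT libraries from the unoperated contralateral femur, so the reporter, the tamoxifen and an operated mouse are common to both groups. Each group had 2 libraries, with Chromium version 2 in replicate 1 and version 3 in replicate 2, so that replicate and chemistry cannot be told apart. The Cxcl12-iCreER transgene is a bacterial artificial chromosome driven by Cxcl12 regulatory sequence. After tamoxifen it marks mainly a subset of reticular stromal cells of the central marrow, and whatever descends from a marked cell stays marked. The paper also reports tdTomato+ cells in some mice without tamoxifen, nearly all of them positive for CD45, Ter119 or CD31. The study calls the replicates biological replicates, and cells of several mice were pooled in replicate 1.

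AP-1 is a dimer of a Jun protein with a Fos or ATF protein, which binds DNA through its basic region and pairs through its leucine zipper. Most of its genes, with the zinc finger gene Egr1 and the orphan nuclear receptor gene Nr4a1, are immediate early genes: growth factors, stress or mechanical signals switch on their transcription within minutes through MAP kinases, SRF and CREB, without new protein synthesis. In the skeleton Fos is needed to form osteoclasts, and mice made to express Fosl1 or a short form of Fosb gain bone.

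The promoters of the immediate early members were read first, since CREB and ATF proteins bind the letters TGACG, the core of the cAMP response element. RefSeq promoter sequence on GRCm38.p6 was matched for 8 of the 10 members, and Egr1 and Fosl1 had no entry. In the 250 bases before the start, counting both strands (TGACG or CGTCA), the core was found in 5 of these 8, with 4 matches in Nr4a1, 2 in Fos and 1 each in Fosb, Junb and Atf3. The share was 17.8% of 32851 promoters of the same length. Fosl2, Jun and Jund had no match. The start is that of the RefSeq entry, which is not always the gene start in GENCODE. The windows of Fosl2, Atf3 and Nr4a1 lay inside the GENCODE gene. That of Jund ended at chr8:70697738, before the GENCODE start at 70698949, so the bases next to that start were not read. The AP-1 site TGANTCA (either strand, 6.75% of all promoters) and the CArG box bound by SRF (1.47%) had no match in any of the 8 windows, and the TATA box TATAAA on the gene's own strand (7.59%) was found in Fos alone, 33 bases before the start and apart from its TGACG matches. A match describes the letters only, and a promoter without a match may still hold variant letters or a site beyond the 250 bases. The 200 bases before the start are shown for Fos (chr12:85473690-85473889, plus strand), Fosb (chr7:19310046-19310245, minus strand), Atf3 (chr1:191183334-191183533, minus strand) and Nr4a1 (chr15:101266646-101266845, plus strand), as 4 of the 5 promoters with a match, among them that of Atf3, which passed the test between CONT and ABL below. Each is written 5′ to 3′ on the gene's strand, with TGACG or CGTCA in capitals.
Fos: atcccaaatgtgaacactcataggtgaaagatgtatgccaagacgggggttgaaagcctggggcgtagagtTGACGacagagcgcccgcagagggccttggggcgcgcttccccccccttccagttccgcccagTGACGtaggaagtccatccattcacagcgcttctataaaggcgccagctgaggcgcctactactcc
Fosb: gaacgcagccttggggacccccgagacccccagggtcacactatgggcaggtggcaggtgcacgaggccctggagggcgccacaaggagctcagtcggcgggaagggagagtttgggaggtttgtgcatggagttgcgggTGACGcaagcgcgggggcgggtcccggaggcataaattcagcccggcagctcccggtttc
Atf3: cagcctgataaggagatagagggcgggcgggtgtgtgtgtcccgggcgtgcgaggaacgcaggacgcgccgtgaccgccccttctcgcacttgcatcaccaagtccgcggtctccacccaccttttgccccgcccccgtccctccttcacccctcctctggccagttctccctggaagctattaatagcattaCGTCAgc
Nr4a1: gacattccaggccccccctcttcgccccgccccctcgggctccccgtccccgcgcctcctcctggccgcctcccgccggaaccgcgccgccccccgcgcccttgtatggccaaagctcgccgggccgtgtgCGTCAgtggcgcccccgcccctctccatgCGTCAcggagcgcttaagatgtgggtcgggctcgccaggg
The match nearest to the start began 7 bases before it in Atf3, 40 in Nr4a1, 60 in Fosb, 66 in Fos and 106 in Junb. Of the 4 matches in Nr4a1, 2 lie in the stretch shown.

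The 4 libraries held between 1459 and 3433 called cells and between 22889380 and 44784072 UMIs. Although sorted for tdTomato, they mixed mesenchymal cells (1304 in CONT and 692 in ABL replicate 1, 2053 and 1808 in replicate 2) with hematopoietic cells (2032, 767, 326 and 613 in the same order). A tdTomato UMI was present in 95.7% to 97.6% of mesenchymal cells and in 30.1% to 61.2% of hematopoietic cells. Clusters were built without the members and named from marker genes, and the largest mesenchymal class, reticular-like cells (Cxcl12, Adipoq, Lepr, Kitl), had 1149, 386, 1708 and 304 cells in CONT 1, ABL 1, CONT 2 and ABL 2. The class mix of mesenchymal cells differed between conditions, since 1080 of the 1808 in ABL replicate 2 were named fibroblasts of periosteum or joint against 50 in CONT. This class is broad. In ABL replicate 2 it held 366 cells of a cluster whose leading genes included Fmod, Tnn and Wif1. It also held 60 cells of a cluster led by C1qtnf3, Scx and Postn. Clustering that library by itself named 291 cells, with Wif1 among their leading genes, pre-osteoblasts. No cell of replicate 2 entered the pre-osteoblast class, which rests on replicate 1. Cell barcodes shared between libraries numbered 5 in replicate 1 and 1 in replicate 2. Xist, a transcript of female cells, had a UMI in 71.9% of the CONT mesenchymal cells of replicate 2 but in 0.0553% of the ABL ones. The mice behind the ABL library of replicate 2 were therefore not, or not all, those behind its CONT library. Sex and condition cannot be told apart in that replicate. In replicate 1 the Xist share was 49.8% in CONT and 81.4% in ABL, at median depths of 4632 and 7082.5 UMIs per mesenchymal cell. In hematopoietic cells of that replicate it was 42.9% and 58.3%, at median depths of 7197.5 and 7560 UMIs. Whether the mix of sexes differed between these 2 libraries was not tested.

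Across cell classes, the members were mostly highest in stroma and vessels and lowest in erythroid or lymphoid cells. Levels are CPM, counts of a gene per 1e+06 UMIs of a class in a library, and are compared within a gene only, because 3′ counts do not rank genes. Egr1 was highest in reticular-like cells, at 1114 ± 634 CPM (mean ± SD over 4 libraries), and the next classes, fibroblasts (772 ± 345, 3 libraries) and mural cells (733 ± 403, 4 libraries), overlapped with it. Fosb (1768 ± 514), Jun (1642 ± 747), Jund (2111 ± 306) and Nr4a1 (702 ± 227) also led in reticular-like cells, each within the spread of its next class. The lead of reticular-like cells was therefore not larger than the spread between libraries.

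Other members had another order. Atf3, a stress-induced partner and repressor of AP-1, was highest in fibroblasts of periosteum or joint (528 ± 52.8 CPM, 3 libraries) and endothelial cells (466 ± 230, 3 libraries), and reticular-like cells stood 8th of 15 classes at 170 ± 101. The fibroblast value rests on few cells in 2 of its libraries. In ABL replicate 1 it came from 11 cells with 38 Atf3 UMIs. In CONT replicate 2, 11 of 50 fibroblasts formed a sub-cluster at 2984 CPM, and the others stood at 257 and 344 CPM. Fosl2 reached 493 ± 106 CPM in endothelial cells, and its lowest library there (426) was above every other class and library (at most 212). Junb was also highest in endothelial cells (1846 ± 179), where its range met that of reticular-like cells (1559 ± 332). Fos had its highest mean in fibroblasts, at 3358 ± 3145 CPM, a value that rests on 1 of 3 libraries at 6981, and was 2614 ± 780 in reticular-like cells. Fosl1 was low everywhere, from 54.1 CPM in cycling cells (1 library) through 32.7 ± 25.2 in mural cells to 1.56 ± 0.87 in erythroid and 0.62 ± 1.07 in B-lineage cells (3 libraries). The cycling value is from ABL replicate 2, in which Fosl1 stood at 67.0 CPM in mural cells. It had no UMI in T or NK cells (1 library) and plasmacytoid dendritic cells (2 libraries), where a count of 0 allows up to 8.50 to 20.9 CPM per library. In erythroid cells Fos stood at 125 ± 54.8, Egr1 at 53.6 ± 38.1 and Atf3 at 12.7 ± 5.54 CPM. The free RNA estimated in erythroid cells (1.20% to 5.72% of UMIs) would by itself give 11.2 to 90.1 CPM of Fos, 4.98 to 45.7 of Egr1 and 2.79 to 9.74 of Atf3, and in ABL replicate 1 it would give 59.4 of the 68.0 CPM of Fos and 5.56 CPM of Atf3 where 4.62 was measured. The osteoblast, chondrocyte, cycling and T or NK classes had at least 10 cells in ABL libraries only, so their levels hold no CONT library. The classes come from the same cells, so no test was made between them.

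**Figure D1:**
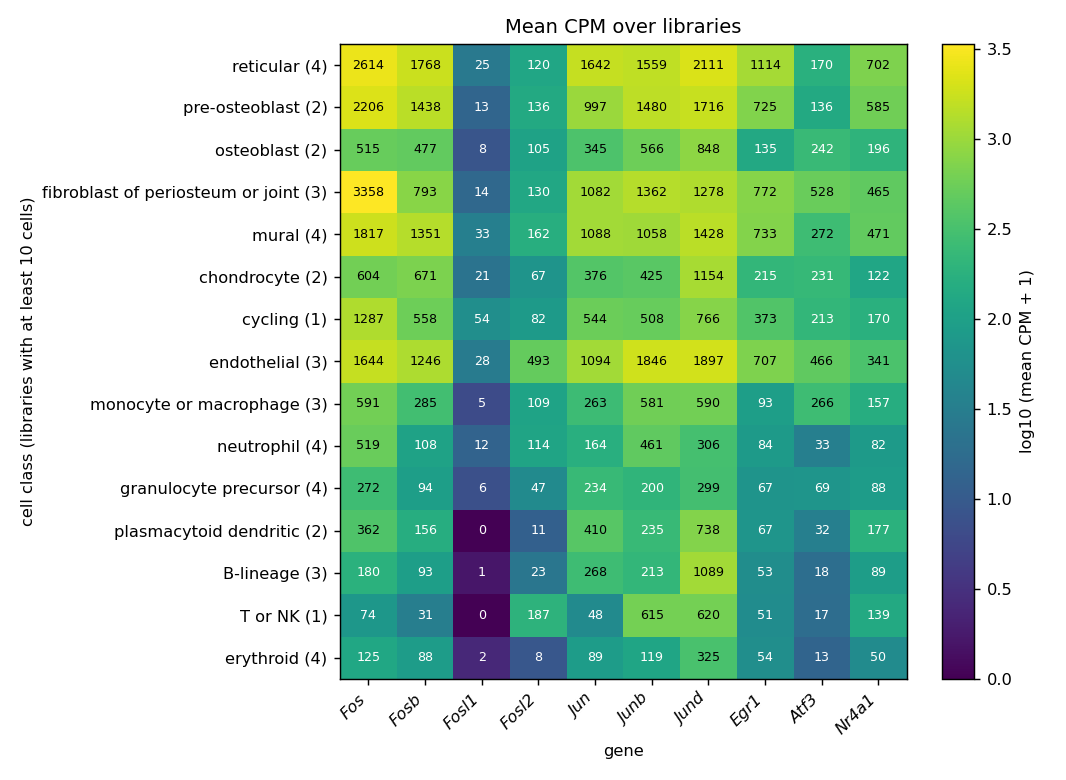
Mean CPM of each member (columns) in each cell class (rows, with the number of libraries holding at least 10 cells), coloured on a log10 scale of mean CPM + 1. Read down a column: Egr1 falls from 1114 in reticular-like cells to 53.6 in erythroid cells, whereas Fosl2 peaks in endothelial cells at 493 and Atf3 in fibroblasts at 528. The fibroblast row includes a cluster of ABL replicate 2 with Wif1 among its leading genes, and the pre-osteoblast row rests on replicate 1. The osteoblast, chondrocyte, cycling and T or NK rows rest on ABL libraries only.

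In reticular-like cells, Atf3 fell and Fosl1 rose in ABL, and the other 8 members did not pass the test. These were 2 of 10 members called by edgeR's quasi-likelihood test on summed counts with the replicate as a block, at a Benjamini-Hochberg adjusted p under 0.05, against 4.14% of the 11332 genes tested (2.21% higher and 1.92% lower in ABL). Fitted values below are log2 differences, ABL against CONT, with the standard error of the fit. Of the members, 9 of 10 had a lower value in ABL in both replicates, against 29.7% of all genes, and their median log2 difference was -0.73 against -0.00 over all genes. With no replicate block, no member and no gene passed at the same threshold, and 320 genes had an unadjusted p under 0.05. With 2 libraries per group the smallest two-sided p of an exact permutation test is 0.333, so single values were not tested on their own. The p-values of the blocked fit rest on how far the 2 replicates differ in their difference between ABL and CONT. That leaves 1 residual degree of freedom, with a variance estimate that draws on all genes. They do not measure the spread between the libraries of a group, and replicate 1 was a pool of mice.

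Fos, the partner of Jun in the classical AP-1 dimer (gene at chr12:85473890-85477273), stood at 2905 CPM in the CONT and 2318 in the ABL library of replicate 1, against 3525 and 1706 in replicate 2. Fosb (chr7:19302696-19310051), its close paralogue, had 1956 and 1279 CPM in replicate 1 and 2404 and 1433 in replicate 2. For both genes each ABL library lay below each CONT library. The log2 differences were -0.77 ± 0.48 for Fos and -0.76 ± 0.45 for Fosb, which did not pass (adjusted p = 0.512 and 0.470, edgeR).

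Fosl1, which encodes the Fos relative FRA-1 (chr19:5447547-5455946), went the other way. Its level was 17.2 CPM in the CONT and 33.1 in the ABL library of replicate 1, from 99 and 95 UMIs, and 11.9 and 39.8 CPM in replicate 2, from 268 and 97 UMIs. Both ABL libraries were above both CONT libraries. The rise was 1.28 ± 0.26 on the log2 scale (2.43-fold, 0.82 in replicate 1 and 1.70 in replicate 2), with an adjusted p of 6.33e-05 in edgeR. Of 13 alternatives with a test, 10 kept the call, with adjusted p from 2.50e-05 to 0.9997 over the 13. It was lost in DESeq2 (1.25), when every cell was thinned to 2000 UMIs (1.19) and with no replicate block (1.26). Fosl2, or FRA-2 (chr5:32135801-32157842), had 119.9 and 106 CPM in replicate 1 and 131 and 124 in replicate 2, groups that overlap, and a log2 difference of -0.21 ± 0.26 (adjusted p = 0.820, edgeR).

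Jun (chr4:95049034-95052222), which can pair with itself or with Fos and some ATF proteins, was at 1367 (CONT) and 918 CPM (ABL) in replicate 1, with 2678 and 1605 in the other replicate. The gap between the CONT libraries was wider than that between conditions in either replicate, and the groups overlap. Junb (chr8:84974484-84978718), which often restrains Jun, had 1906 and 1251 CPM in replicate 1 and 1780.0 and 1302 in replicate 2. Jund (chr8:70698949-70700616), the Jun gene with the most constant expression in most tissues, had 2552 and 2077 in replicate 1 and 1940.1 and 1875 in replicate 2. Junb did not overlap between groups and Jund did. The log2 differences were -0.74 ± 0.44 for Jun, -0.61 ± 0.44 for Junb and -0.26 ± 0.46 for Jund, and none passed (adjusted p = 0.484, 0.611 and 0.891, edgeR).

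Egr1, a zinc finger factor induced through SRF, reached 943 (CONT) and 661 CPM (ABL) in replicate 1, then 2049 and 805 in replicate 2. ABL lay below CONT in each replicate and without overlap, but the CONT libraries differed from each other by more than the ABL libraries did. The log2 difference of -1.01 ± 0.42 had an adjusted p of 0.197 in edgeR. DESeq2 called it on the same sums (-1.04, adjusted p = 0.0218), the only 1 of 13 alternatives that did (adjusted p up to 0.9997). Nr4a1 (chr15:101254269-101274795), which encodes NUR77, had 974 and 689 CPM in replicate 1 and 724 and 419 in replicate 2, a log2 difference of -0.73 ± 0.38 (adjusted p = 0.387, edgeR).

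Atf3 (chr1:191170296-191218039) stood at 215 (CONT) and 82.1 CPM (ABL) in replicate 1, from 1239 and 236 UMIs, and 292 and 92.4 CPM in replicate 2, from 6589 and 225 UMIs. Both ABL libraries lay below both CONT libraries, and the replicates gave nearly the same size, -1.52 and -1.70. The fitted log2 difference was -1.61 ± 0.29, 3.05-fold lower in ABL, with an adjusted p of 4.27e-06 in edgeR. Of 13 alternatives with a test, 12 kept this call, and the fit with no replicate block did not (-1.62, adjusted p = 0.9997). Over the 13, the adjusted p ran from 3.15e-07 to 0.9997 and the log2 difference from -1.74 to -1.33.

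**Figure D2:**
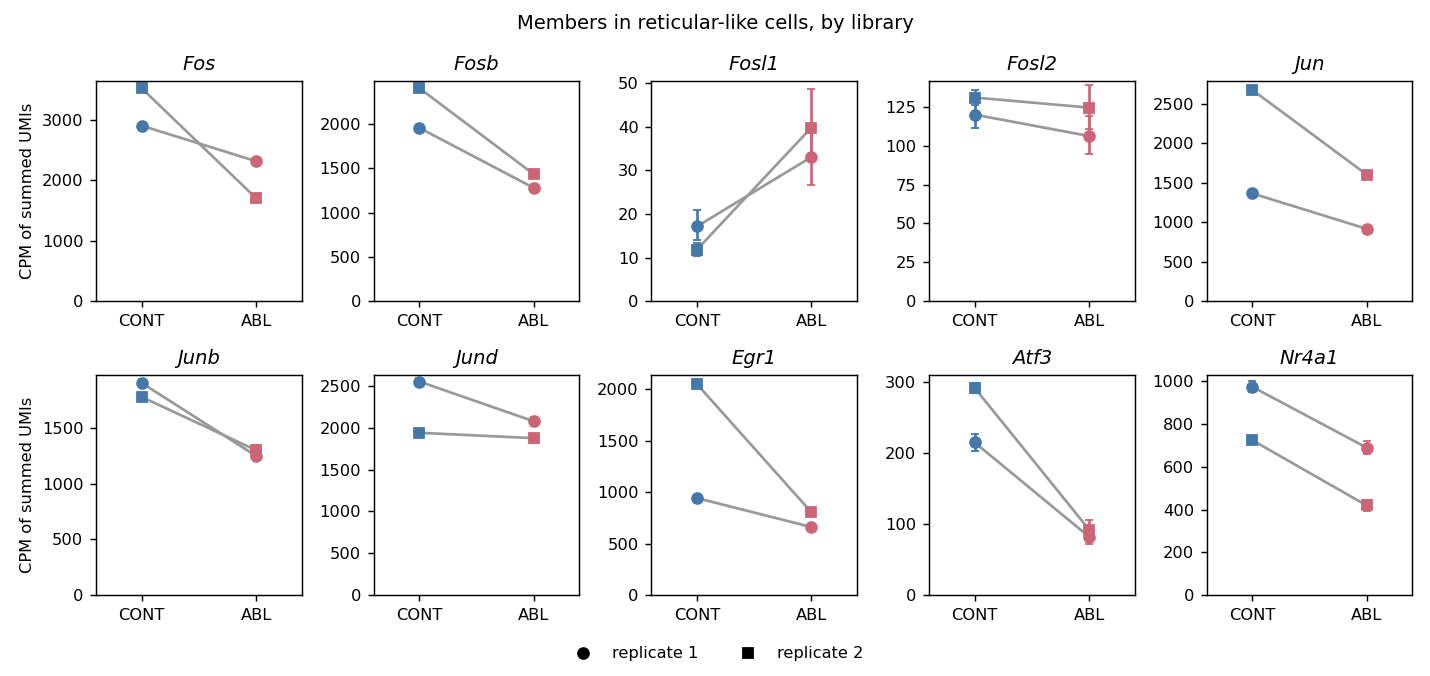
CPM of each member in reticular-like cells in the 4 libraries (circles replicate 1, squares replicate 2; a line joins CONT and ABL of a replicate; bars are 95% exact Poisson intervals, which cover counting error only; each axis starts at 0). Atf3 goes from 215 to 82.1 and from 292 to 92.4, Fosl1 goes up in both replicates, and Fosl2 and Jund overlap between groups.

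Depth, RNA quality and other cells' RNA were set beside these values. The median UMI count of a reticular-like cell was 4500 (CONT) and 6622 (ABL) in replicate 1, but 12743 and 7559 in replicate 2, so depth moved in opposite directions in the replicates. The median mitochondrial share was higher in ABL in both, at 3.6% against 4.0% in CONT and ABL of replicate 1 and 4.0% against 5.6% in replicate 2. Neutrophil marker genes, 9 in all, summed to 10255 (CONT) and 6101 CPM (ABL) in replicate 1 but to 150 and 113 in replicate 2, and the 12 erythroid markers to 13935 and 12180 and then to 300.1 and 2413. Free RNA was estimated at 7.87%, 6.59%, 0.716% and 0.935% of reticular-like UMIs in the same order. The Atf3 difference was -1.66 after subtracting the free RNA profile and the Fosl1 difference 1.30, both still called.

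The share of cells with a UMI was compared next. After thinning each cell to 2000 UMIs, which left out no cell, a UMI of Atf3 was found in 27.5% (CONT) and 14.0% (ABL) of reticular-like cells in replicate 1, then in 27.0% and 13.2% in replicate 2. The 95% exact binomial intervals of CONT (24.9 to 30.2% and 24.9 to 29.2%) did not meet those of ABL (10.7 to 17.9% and 9.57 to 17.5%), which cover counting error only. In erythroid cells the thinned Atf3 share was 3.85%, 0.685%, 0 of 64 cells (which allows a share of up to 4.69%) and 2.33%, at median depths of 10610, 12916, 24382 and 18472 UMIs. Unthinned, the reticular-like shares of Atf3 were 43.9%, 28.2%, 53.5% and 28.0%.

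For Egr1 the thinned shares were 64.7% and 57.3% in replicate 1 and 72.2% and 48.7% in replicate 2, against 2.33% to 7.49% in erythroid cells. Unthinned they were 79.9%, 80.3%, 87.9% and 69.7%, so in replicate 1 the share alone did not separate the conditions. Fos had thinned shares of 72.6% and 72.5% in replicate 1 and 69.0% and 58.6% in replicate 2, against 6.98% to 15.6% in erythroid cells, and 85.7%, 90.2%, 85.9% and 72.7% unthinned. Fosl1 was found in few cells, with thinned shares of 2.61% (CONT) and 5.44% (ABL) in replicate 1, then 1.70% and 5.59% in replicate 2, and unthinned shares of 6.53%, 14.5%, 9.78% and 21.1%. The erythroid share of Fosl1 was at most 0.685% after thinning. After thinning, the top 10% of reticular-like cells held 43.7% to 48.6% of the Fos UMIs and 61.6% to 88.6% of those of Atf3, but 25.3% to 30.4% of those of Jund. This value rises as a gene has fewer UMIs per cell, and it was 100% for Fosl1 in each library. It therefore does not rank the genes by how unevenly cells use them.

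Within libraries, Fos, Jun and Egr1 varied together from cell to cell. Over reticular-like cells of a library, Pearson's r of log values averaged 0.65 for Fos and Egr1 (0.588 to 0.719 over 4 libraries), 0.62 for Fos and Jun, 0.56 for Jun and Egr1 and 0.46 for Fos and Junb. Jund, in contrast, had a mean r of 0.05 with Fos, and Fosl1 had a mean r of -0.12 with Fos and -0.10 with Egr1. Cells of a library share its depth and its handling, and in sparse counts weak values are no finding, so these are descriptions without a test.

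**Figure D3:**
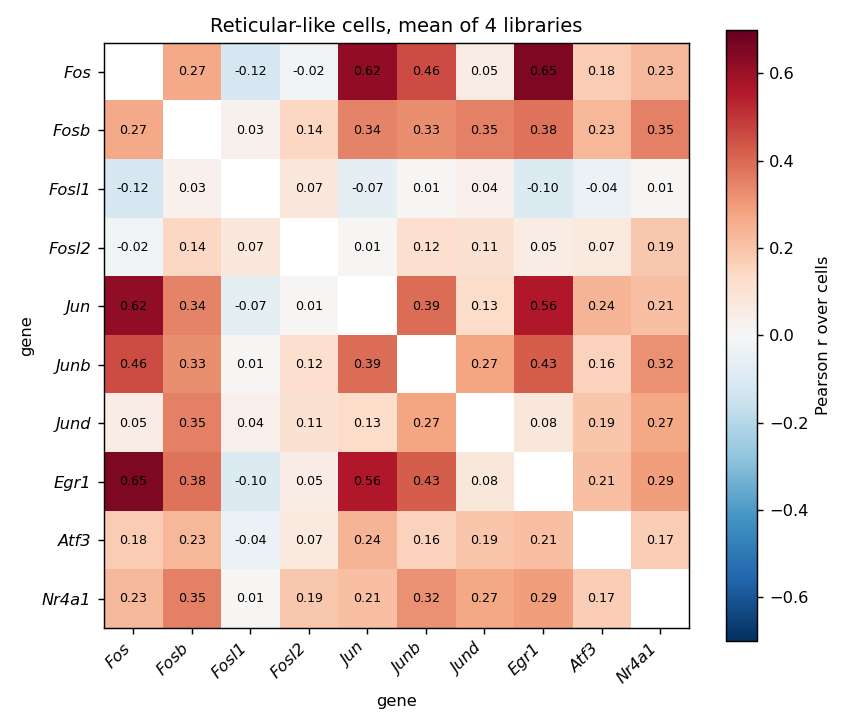
Pearson r between members over reticular-like cells, as the mean of 4 libraries (colour scale from blue, negative, to red, positive; the diagonal is left blank). Fos, Jun and Egr1 form the darkest group, with r from 0.56 to 0.65, and Fosl1 has r between -0.12 and 0.07 with every other member.

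The same members were lower in ABL within most sub-clusters of reticular-like cells. There were 11 sub-clusters over both replicates, built without the members. Egr1 and Atf3 were lower in ABL in 11 of 11, Fosb and Nr4a1 in 10, Jun, Junb and Jund in 9, and Fos and Fosl2 in 8, whereas Fosl1 was higher in ABL in 10. Sub-clusters of 1 library are not replicates, the count has no test, and the share over all genes was not counted. The exception for Fosl1 was a cluster with 8 ABL cells and no Fosl1 UMI among them. Some of the 10 sub-clusters in which Fosl1 was higher in ABL also rested on few UMIs. CONT and ABL had 2 and 3 UMIs in 1 sub-cluster of replicate 1, and 1 and 3 in another. In replicate 2 they had 3 and 4 UMIs in 1 sub-cluster, and 0 and 11 in another.

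A small sub-cluster of replicate 2, led by Gadd45g, Ier5l and Ppp1r15a, had the highest level in CONT of every member except Fosl1 among the sub-clusters of that replicate. It held 75 CONT cells (4.39% of CONT reticular-like cells) and 11 ABL cells (3.62%). Fosl1 was at 13.9 CPM there, against 21.0 in the highest sub-cluster, and Jund at 3583 against 2610 in the next. Fos reached 14131 CPM in its CONT cells and 7677 in its ABL cells, Jun 10874 and 6480, Egr1 8183 and 2419, and Atf3 1867 and 929. It held 18.4% of all Atf3 UMIs of CONT reticular-like cells and 32.4% of those of ABL. Without it, an alternative added after the data were seen, the Atf3 difference was -1.74 and that of Fosl1 1.25, both still called by edgeR.

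**Figure D4:**
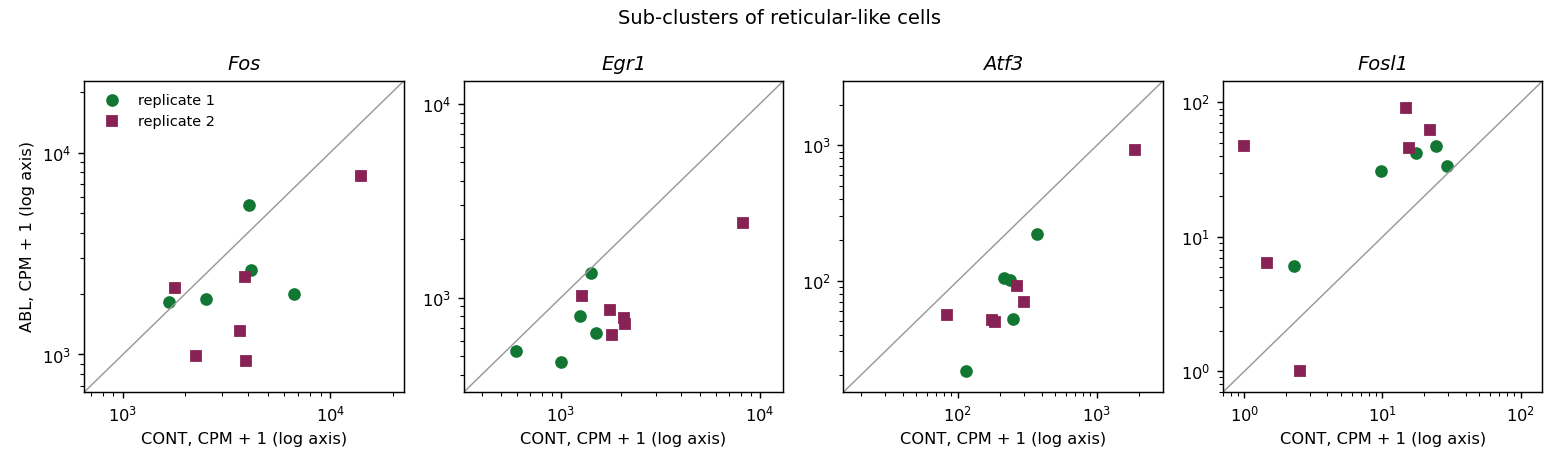
CPM + 1 in ABL (vertical, log axis) against CONT (horizontal, log axis) for Fos, Egr1, Atf3 and Fosl1 in the 11 sub-clusters of reticular-like cells (circles replicate 1, squares replicate 2; the diagonal marks equal levels). All points of Egr1 and Atf3 lie below the diagonal, 10 of 11 of Fosl1 above it, and 1 square at the upper right of Fos, Egr1 and Atf3 is the sub-cluster led by Gadd45g.

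When all mesenchymal cells were summed, no member was called, against 1.92% of 13713 genes. In that fit 2125 genes had an unadjusted p under 0.05, Fosl1 among them as the only member, and DESeq2 called 1 member. Values were lower in ABL in both replicates for 8 of 10 members, against 34.5% of all genes. Egr1 stood at 903 (CONT) and 480.0 CPM (ABL) in replicate 1, then 1987 and 488 in replicate 2, a log2 difference of -1.51 ± 0.74 (adjusted p = 0.362, edgeR), which DESeq2 called (-1.48, adjusted p = 0.0436, with a range of 0.0436 to 0.526 over 11 alternatives). Jun had -1.39 ± 0.77, Fosb -1.30 ± 0.79, Nr4a1 -1.14 ± 0.64 and Fos -1.04 ± 0.86. These values were further from 0 than in reticular-like cells, with larger errors. In ABL replicate 2, 1080 of 1808 mesenchymal cells were of the fibroblast class, against 50 of 2053 in CONT replicate 2. Class mix and level cannot be told apart in these sums.

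Atf3 did not hold one direction in all mesenchymal cells. It stood at 216 (CONT) and 109 CPM (ABL) in replicate 1 but at 310.1 and 378 in replicate 2, a fitted difference of -0.39 ± 0.58. The ABL cells of replicate 2 were mostly of the fibroblast class, in which Atf3 stood at 467 CPM in that library and at 564 in CONT replicate 2, so class mix and level cannot be told apart in this sum. The CONT value came from 50 cells, of which 11 formed a sub-cluster at 2984 CPM. Fosl1 had 15.4 and 26.1 CPM in replicate 1 and 12.7 and 39.2 in replicate 2 (1.16 ± 0.42, adjusted p = 0.202, edgeR). It was called after thinning to 2000 UMIs (1.58, adjusted p = 0.0126, with a range of 0.0126 to 0.487 over 11 alternatives).

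In hematopoietic cells 1 of 10 members was called, Egr1, against 6.3% of 11939 genes (2.52% lower in ABL). Its level was 51.2 (CONT) and 28.3 CPM (ABL) in replicate 1, then 166 and 48.9 in replicate 2. Both ABL libraries were below both CONT libraries, although the CONT libraries were further apart than the conditions of replicate 1. It fell by 1.45 ± 0.40 on the log2 scale, 2.73-fold (-0.99 and -1.90 in the replicates), with an adjusted p of 0.00796 in edgeR. In the droplets with at most 300 UMIs, whose RNA is free, Egr1 was at 452, 336, 1662 and 415 CPM, and free RNA was estimated from Cxcl12 at 5.23%, 5.59%, 2.56% and 0.430% of hematopoietic UMIs. After subtracting that profile Egr1 still passed, at -1.62 (adjusted p = 0.00375, with a range of 0.00375 to 0.526 over 10 alternatives). It did not pass without the doublets called by Scrublet (-1.39), with every cell thinned (-1.03) or with no replicate block (-1.57).

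The other 9 members were not called in hematopoietic cells. Values were lower in ABL in both replicates for 7 of 10 members against 34.1% of all genes. Fosl1 had -1.04 ± 0.49 (adjusted p = 0.237, edgeR), from 4.93 and 3.74 CPM in replicate 1 and 9.96 and 3.73 in replicate 2. Fosl2 had 46.8 and 68.1 CPM and then 85.4 and 131 (0.44 ± 0.39), and Atf3 32.1 and 38.9 and then 86.9 and 123 (0.25 ± 0.38), so these 2 were higher in ABL in both replicates without passing. Monocytes or macrophages, in which Atf3 was at 266 ± 120 CPM, were 180 of the 613 hematopoietic cells of ABL replicate 2, and none were named so in CONT replicate 2. Hematopoietic sums also held unnamed clusters. In ABL replicate 2 this was 82 cells led by Acp5, Atp6v0d2 and Mt3, with a median of 28537.5 UMIs. Unnamed cells in replicate 1 were 20 in ABL, led by Acp5, Mt3 and Ctsk, and 172 in CONT, led by Prss34, Acp5 and Mcpt8. CONT replicate 2 had no such cluster. The part of these clusters in the hematopoietic values, the Egr1 call included, was not tested.

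Single classes with at least 10 cells in every library gave 2 calls. Egr1 fell by 1.51 ± 0.37 in granulocyte precursors (adjusted p = 0.00682, edgeR, against 1.54% of 9441 genes called), with 29.6 (CONT) and 25.4 CPM (ABL) in replicate 1, then 179.9 and 32.1 in replicate 2. The replicates differed in size, -0.65 and -2.22, and 4 of 9 alternatives kept the call. The fit without TMM did not keep it, and the TMM factors of replicate 1 were 0.719 (CONT) and 0.972 (ABL). Free RNA was estimated at 4.02% (CONT) and 4.89% (ABL) of UMIs of these cells in replicate 1, then 3.36% and 0.214% in replicate 2. With free RNA subtracted the call was kept (-1.41, adjusted p = 0.0233, edgeR). The CONT library of replicate 2 had no class named monocyte or macrophage, and the leading genes of its granulocyte precursors included the monocyte genes F13a1, Ms4a6c, Mpeg1 and Ccr2. The ABL library of replicate 2 had no class named B-lineage. The leading genes of its granulocyte precursors included Jchain, and with the study's cell filter also Cd79a and Vpreb3. Monocyte or macrophage markers summed in granulocyte precursors to 62.8 (CONT) and 834 CPM (ABL) in replicate 1, then 1744 and 1469 in replicate 2. The part of other cell types within this class in the call was not tested. Atf3 fell by 2.06 ± 0.58 in mural cells (adjusted p = 0.0197, edgeR, against 2.82% of 7977 genes), from 284 to 118 CPM and from 587 to 98.3. Mural cells, the smooth muscle and pericyte class, numbered 56 and 111 in replicate 1 and 37 and 149 in replicate 2, and 5 of 10 alternatives kept the call. In neutrophils (0.199% of 6038 genes called) no member passed in edgeR, with Egr1 at -2.01 ± 0.61, Fosb at -1.66 ± 0.51 and Atf3 at -1.61 ± 0.42. An unadjusted p under 0.05 was found for 6 of 10 members and 220 of all genes, and DESeq2 called 14 genes and no member. With no filter on low counts edgeR called Egr1, Fosb and Atf3 in neutrophils, and with free RNA subtracted Fosb and Atf3. In erythroid cells (0.791% of 7458 genes called) none of the 9 members tested passed in edgeR, with Egr1 at -1.40 ± 0.46. An unadjusted p under 0.05 was found for 5 of 9 members and 502 of all genes, and DESeq2 called 4 genes and no member. Under the stricter cell filter edgeR called Egr1 there, at -1.98. With no replicate block none of these 4 classes had a called gene.

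**Figure D5:**
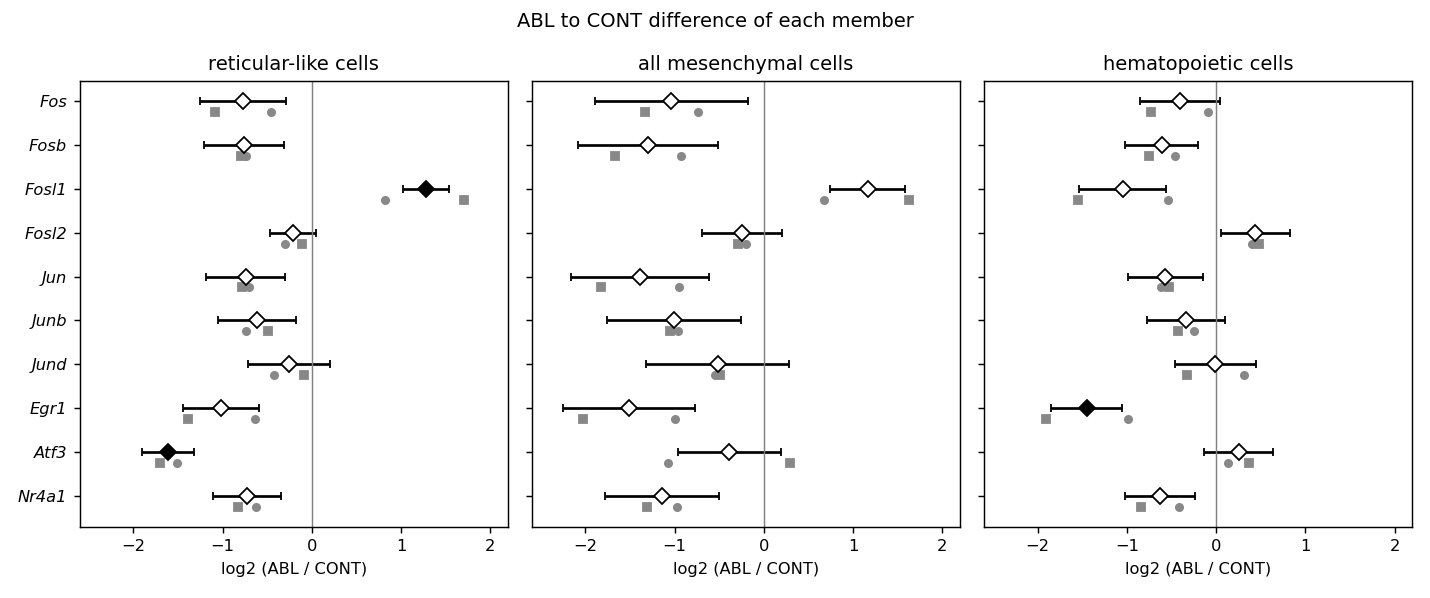
Fitted log2 difference of each member, ABL against CONT, in reticular-like, all mesenchymal and hematopoietic cells (diamonds, filled where the adjusted p is under 0.05; bars are ± 1 standard error of the fit; grey circles replicate 1, grey squares replicate 2). Filled diamonds mark Fosl1 at 1.28 and Atf3 at -1.61 in reticular-like cells and Egr1 at -1.45 in hematopoietic cells.

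Whether the difference between CONT and ABL itself differed between mesenchymal and hematopoietic cells was tested on 8 sums with the library as a block. No gene of 13648 passed in edgeR, 0 of 10 members among them (0% called), while 1482 genes had an unadjusted p under 0.05 and DESeq2 called 135 genes and no member. Fosl1 had the largest value among the members, 2.24 ± 0.53 (unadjusted p = 0.00812, adjusted p = 0.421, edgeR), higher in mesenchymal cells in both replicates. For Egr1 the value was -0.04 ± 0.28. The edgeR call of Egr1 in hematopoietic and not in mesenchymal cells is therefore no shown difference between them.

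The neighbours of these genes in their pathway were taken from lists. Over all genes tested in reticular-like cells, edgeR called 2.21% higher and 1.92% lower in ABL. Of 18 MAP kinases, their upstream kinases and SRF cofactors tested in reticular-like cells, 0 were called by edgeR, 0 had an unadjusted p under 0.05 and 0 were called by DESeq2, with a median log2 difference of -0.11 against -0.00 over all genes. Of 13 feedback inhibitors of the MAP kinase pathway, 3 fell and none rose. These were Spry2 (-1.19 ± 0.25) and Spry4 (-1.18 ± 0.25), which block signalling from receptor tyrosine kinases, and Dusp4 (-1.46 ± 0.39), a nuclear MAP kinase phosphatase, at 4.52 to 20.8 CPM. Dusp4 had -0.51 in replicate 1, from 34 (CONT) and 13 UMIs (ABL), and -2.24 in replicate 2, from 469 and 11. The level of Spry2 was 61.1 (CONT) and 25.4 CPM (ABL) in replicate 1, then 53.9 and 27.9 in replicate 2.

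Of 26 other immediate early genes, 1 fell, Myc (-0.97 ± 0.29, adjusted p = 0.0280, edgeR), from 241 to 137 and from 268 to 138 CPM. Values were lower in ABL in both replicates for 18 of 26, against 29.7% of all genes. Of 15 other bZIP factors, 1 fell, the small MAF gene Maff (-0.94 ± 0.26, adjusted p = 0.0103). The textbook AP-1 targets did not move one way. Of 11 tested, Ccnd1 (2.42 ± 0.54), Timp1 (1.93 ± 0.25) and Fosl1 itself, which is on both lists, rose, and Il6 fell (-1.75 ± 0.26). Ccnd1 rested on few counts, with 13 (CONT) and 28 UMIs (ABL) in replicate 1 and 21 and 17 in replicate 2. Its level went from 2.26 to 9.75 and from 0.93 to 6.98 CPM. Timp1, an inhibitor of matrix metalloproteinases, went from 47.9 to 136 and from 20.5 to 118 CPM, and the cytokine Il6 from 91.8 to 26.1 and from 146 to 50.1.

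Heat shock genes, which respond to protein damage and to handling of tissue, were lower in ABL together with most members in reticular-like cells. Of 14 tested there, 4 fell, against 1.92% of all genes, and 13 had lower values in both replicates, against 29.7%. Hspa1b was at -2.22 ± 0.29, Hspa1a at -1.73 ± 0.32 and Hsph1 at -1.15 ± 0.25. The summed level of the 14 was 6520.0 (CONT) and 4188 CPM (ABL) in replicate 1, then 7895 and 5638 in replicate 2. In all mesenchymal cells 0 of 14 were called by edgeR, with 9 lower in both replicates, 4 at an unadjusted p under 0.05 and 2 called by DESeq2. Over all genes, 34.5% were lower in both replicates in mesenchymal and 34.1% in hematopoietic cells. In hematopoietic cells, where Egr1 was called, 0 of 14 heat shock genes were called by edgeR or DESeq2 and 1 had an unadjusted p under 0.05, with 3 lower and 5 higher in both replicates and a median of 0.02, and in erythroid cells the median was 0.33. All 4 libraries went through enzymatic digestion and sorting, and the part of handling in the values of the members was not tested.

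In all mesenchymal cells the same lists gave 5 calls, with Spry4 lower (-2.41 ± 0.47), Timp1 (3.86 ± 0.75), Ccnd1 (3.29 ± 0.53) and the hyaluronan receptor gene Cd44 (3.05 ± 0.66) higher, and Il6 lower (-2.36 ± 0.44). Cd44 had 1.77 in replicate 1 and 4.31 in replicate 2, Timp1 2.83 and 4.90, and Il6 -2.32 and -2.40. Class mix and level cannot be told apart in these mesenchymal sums. Over all genes, 1.92% were called in mesenchymal and 6.3% in hematopoietic cells. In hematopoietic cells the bZIP genes Maf (2.09 ± 0.40) and Jdp2 (1.59 ± 0.41) rose, as did Egr2 (1.604 ± 0.520) and the MAP kinase inhibitor Spred1 (2.10 ± 0.40). Cyr61 (-1.97 ± 0.45), Ctgf (-1.74 ± 0.43), Spry4 (-2.72 ± 0.77) and Il6 (-2.64 ± 0.48) fell there, and Timp1 (2.33 ± 0.46), Ccnd1 (2.26 ± 0.44) and Hmox1 (2.18 ± 0.45) rose. Some of these differed widely between replicates 1 and 2, with -0.26 and -3.86 for Cyr61, -0.31 and -3.30 for Ctgf and 0.45 and 2.90 for Egr2. Free RNA was estimated at 2.56% (CONT) and 0.430% (ABL) of hematopoietic UMIs in replicate 2. The values here are from counts without free RNA subtracted. The monocyte or macrophage markers, 10 in all, summed in hematopoietic cells to 566 (CONT) and 1325 CPM (ABL) in replicate 1, then to 730 and 2704 in replicate 2. Their part in these values, and that of the unnamed hematopoietic clusters, was not tested.

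The genes most like each member were ranked by Pearson's r of log2(CPM + 10) over the 42 class by library sums with at least 10 cells. Egr1 and Fosb were each other's neighbours (0.95), as were Fos and Nr4a1 (0.91). For Fos the leading gene was Ski (0.91), for Fosb Dlc1 (0.96), for Jun Dag1 (0.93), for Junb Maff (0.92) and for Jund Hivep2 (0.93). Atf3 was most like Klf4 (0.90) and Egr1, after Fosb, like Socs3 (0.94). Fosl2 and Fosl1 had lower leading values, 0.86 with Kdm6b and 0.78 with Tcaf1. Sums of a library share its depth and chemistry, so these values only describe the order of levels over classes.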

How the data were processed

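Single-cell libraries of tdTomato+ cells were sequenced from ablated (ABL) and contralateral (CONT) femurs, with 2 libraries each. The authors deposited raw UMI counts per gene and barcode, and the submitters' processing notes name Cell Ranger, Seurat and the build mm10. Cells had at least 500 detected genes and at most 20% mitochondrial counts (Chromium version 2) or 1000 and 15% (version 3), and a UMI total no lower than 10% of the 99th percentile over the 3000 largest barcodes. Depth was 22889380 to 44784072 UMIs per library. Intervals and floors (3 counts) cover counting error only.

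Cells were clustered in Seurat 5.3.0 without the members, and classes were named from 136 marker genes with at least 3 detected (a UMI in at least 10% of cells). The thresholds for naming were set after the data were seen. Clusters that stayed unnamed entered no single class. Doublets were called with Scrublet (scanpy 1.11.5) and left out only as an alternative. Counts were summed per class and library and tested with edgeR 4.0.16 (R 4.3.3), with TMM, filterByExpr, the quasi-likelihood F test, the replicate as a block (1 residual degree of freedom) and Benjamini-Hochberg adjustment over all genes, at 0.05. The standard error is the log2 difference divided by the square root of F. DESeq2 1.42.0 was an alternative. The scripts were tested on simulated data.

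The block follows the contralateral design. Same-numbered libraries deviated together (correlation 0.728 in reticular-like, 0.443 in mesenchymal and 0.522 in hematopoietic cells). They also share the Chromium version, so this correlation cannot tell shared mice from shared chemistry. The Xist shares put the shared mouse of replicate 2 in doubt. The members and lists were chosen with earlier results of these data known. The text names all 10 members, and of each other list up to 3 genes per direction with the largest called difference; 1 of these is not reported here. Gene coordinates are GENCODE M21 on GRCm38.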

Additional observations from a re-analysis of the deposited data

Results flagged for a closer look

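For the 6 genes given here the difference between ABL and CONT had opposite directions in reticular-like and hematopoietic cells in both replicates. The difference of the log2 differences, reticular-like minus hematopoietic, was tested with edgeR on 8 sums, and none of the 6 passed after Benjamini-Hochberg adjustment. Among the members, Fosl1 had 2.18 ± 0.49 (unadjusted p = 0.00463, adjusted p = 0.433), being higher in ABL in reticular-like cells (0.82 and 1.70 in the replicates) and lower in hematopoietic cells (-0.54 and -1.55). Atf3 had -1.999 ± 0.461 (adjusted p = 0.433) and Fosl2 -0.79 ± 0.30 (adjusted p = 0.577), both lower in ABL in reticular-like cells and higher in hematopoietic cells. Among the listed genes, Spred1 had -2.55, Jdp2 -2.08 and Egr2 -2.03, with adjusted p from 0.360 to 0.551 in edgeR. The hematopoietic cells of ABL also had the higher summed level of monocyte or macrophage markers (566 against 1325 CPM in replicate 1 and 730 against 2704 in replicate 2, CONT against ABL). The part of this level, and that of the unnamed hematopoietic clusters, in these values was not tested.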

How the results depend on the processing

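With no replicate block, which does not use the pairing, the number of members called was 0 in all mesenchymal, 0 in reticular-like, 0 in hematopoietic cells and 0 in single classes, and no gene was called in any fit, while 1263, 320 and 838 genes had an unadjusted p under 0.05 in the first 3. In reticular-like cells the 2 called members became 1 with every cell thinned to 2000 UMIs (Atf3). In mesenchymal cells 0 became 1 in DESeq2 (Egr1) and 1 with thinning (Fosl1). In hematopoietic cells 1 became 0 without Scrublet doublets and 0 with thinning. In single classes 2 became 0 in DESeq2, 0 with the cell filter of the study by itself, 0 with thinning, 1 without TMM, 4 with no filter on low counts and 4 with free RNA subtracted, and under the stricter cell filter they stayed 2 but were Atf3 in mural and Egr1 in erythroid cells. The cause was not tested. Leaving out a replicate leaves 1 library per group and so no test. Without a replicate, the log2 difference in reticular-like cells was -1.70 to -1.52 for Atf3 and 0.82 to 1.70 for Fosl1. Signs turned when 1 replicate was left out for Atf3 in mesenchymal cells (-1.07 to 0.29), Jund in hematopoietic cells (-0.33 to 0.31) and Egr1 in the difference of effects (-0.14 to 0.052), for Jund in hematopoietic cells without TMM (0.13), with no filter (0.020), with the study's filter (0.018), a stricter filter (0.013) and free RNA subtracted (0.012), and for Egr1 in the difference of effects with RLE size factors (0.053), DESeq2 (0.053), with free RNA subtracted (0.095) and with reticular-like in place of mesenchymal cells (0.30). None of those with a test was called.

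Of 120 mean levels, 8 moved by more than the spread between libraries, for Fosl2 (CONT, 138 CPM), Junb (ABL, 1318), both reticular-like, Jund (454) and Fosl1 (3.80) in hematopoietic ABL with the study's filter, Fosl1 without doublets (3.28), and Fos (273), Fosl1 (3.31) and Nr4a1 (61.4) there with free RNA subtracted. The differences in share of reticular-like cells with a UMI, ABL minus CONT in percentage points, moved for Fosl1 (9.63 unthinned, 1.78 at 1000 UMIs), Atf3 (-20.6 and -8.45), Fosl2 (-4.12 unthinned) and Nr4a1 (-7.22 unthinned). Counts of called genes moved from 263 to between 406 and 1029 in mesenchymal cells, from 469 to 144 (DESeq2) and 106 (thinned) in reticular-like cells, from 752 to 252 (DESeq2), 414 (RLE), 324 (no doublets) and 305 (thinned) in hematopoietic cells, from 145 to between 1 and 149 in granulocyte precursors, from 225 to between 2 and 260 in mural cells, from 12 to between 0 and 87 in neutrophils, from 59 to between 3 and 78 in erythroid cells, and from 0 to 1 (no TMM), 5 (no filter), 15 (free RNA) and 135 (DESeq2) in the difference of effects. The alternatives on single clusters, on cells with a tdTomato UMI and on reticular-like in place of mesenchymal cells were added after the data were seen.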
